A study of Mus musculus with 8 samples.

Results

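Hepatocytes that descended from transplanted bone marrow (BM) cells and were sorted 1 month after transplantation (arrays B1 and B2) were compared with primary hepatocytes (arrays H2 and H4). The 4 arrays were chosen by their titles out of 8 in the series, which also holds the Lin- BM cells that were transplanted (L3 and L4) and BM-derived hepatocytes after 5 months (G1 and G3). By the study's methods, the recipients were male hemophilia A mice (B6;129S4-F8tm1Kaz/J, aged 6 to 8 weeks) whose liver had been injured with acetaminophen, and the donors were female C57Bl6/J mice with an eGFP transgene, also aged 6 to 8 weeks. Lin- BM cells, that is marrow cells without markers of mature blood lineages, were given through the tail vein. Livers were dissociated with collagenase, hepatocytes were spun down at low speed, and cells with eGFP were sorted as BM-derived. Cells of 3 mice were pooled for each experiment. The strain, sex and treatment of the mice that gave the primary hepatocytes are not given in the sources used here, so the groups may differ in strain, sex, injury and sorting as well as in the origin of the cells. Gene expression was measured on single-colour Agilent arrays. The 1-month arrays and those of Lin- BM cells lay on slide 1, while the primary and 5-month hepatocytes lay on slide 2, which had another array design and another scan day. Slide and group therefore cannot be told apart in this comparison.

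Hepatocytes make most proteins of the blood plasma, release glucose and turn ammonia into urea. Their tasks differ along the liver lobule: cells near the portal vein favour urea and glucose production and the breakdown of amino acids, and cells near the central vein favour detoxification and bile acid synthesis under Wnt signals. Collagenase perfusion and cell sorting are known to induce immediate early genes, and Kupffer cells, the resident macrophages of the liver, are a usual companion of hepatocyte preparations.

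The designs shared no probe names, so only the 13991 probes with the same sequence on both were used. Levels are log2 background-subtracted signals minus the 75th percentile of the array over these probes, so that 0 is the level of a rather bright probe, and all differences below are on this log2 scale. Genes were tested if 1 or more of the 4 groups had the probe clearly over background on each of its arrays, which left 9210 genes. It was called when limma's adjusted p (Benjamini-Hochberg over all genes tested) was under 0.05 and the difference was beyond 0.6 in size. Whether 2 arrays of a group are separate preparations rests on the study's description, and the p-values measure the spread between these arrays.

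Both groups carried the marks of hepatocytes. Albumin (Alb), the main plasma protein, was at 8.50 on B1, 8.41 on B2, 9.10 on H2 and 9.39 on H4, against a mean of -8.10 in Lin- BM cells. All 17 measured genes of abundant plasma proteins and all 8 measured hepatocyte transcription factors were well above background in both groups. Across the 9210 genes, the 1-month and primary arrays correlated at 0.945 to 0.953 (Pearson's r), B1 with B2 at 0.981 and H2 with H4 at 0.977. These are correlations across genes, which are not independent replicates.

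At 1 month 1068 genes were higher and 471 lower than in primary hepatocytes, which is 16.7% of the genes tested (11.6% higher and 5.11% lower), and the median difference of all genes was 0.17. The groups of 2 arrays did not overlap for 64.6% of the genes. Counts of calls in the gene lists below are to be read against 11.6% higher and 5.11% lower of all genes. Counts at an unadjusted limma p under 0.05 are to be read against 2978 of all 9210 genes. The split between higher and lower calls depended on how the arrays were scaled: with the median of the array in place of the 75th percentile it was 712 to 850, with the values processed by the authors 730 to 752, and with quantile normalization 665 to 597. With the arrays aligned on their spike-in controls it was 491 to 3739, and the median difference of all genes moved to -0.87. The sign and size of the excess thus depended on the scaling. Of the genes well above background on all 4 arrays, 506 of 6943 were higher (7.29%) and 376 lower (5.42%). Of the 209 genes above background on both 1-month arrays and neither primary array, 202 were higher. Of the 289 with the reverse pattern, 74 were lower. Other genes above background on only some of the 4 arrays gave 177 higher and 21 lower calls. Another 183 of the higher calls, and 0 of the lower, concerned the 749 genes that were not above background in either group. No fold can be given for these.

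**Figure D1:**
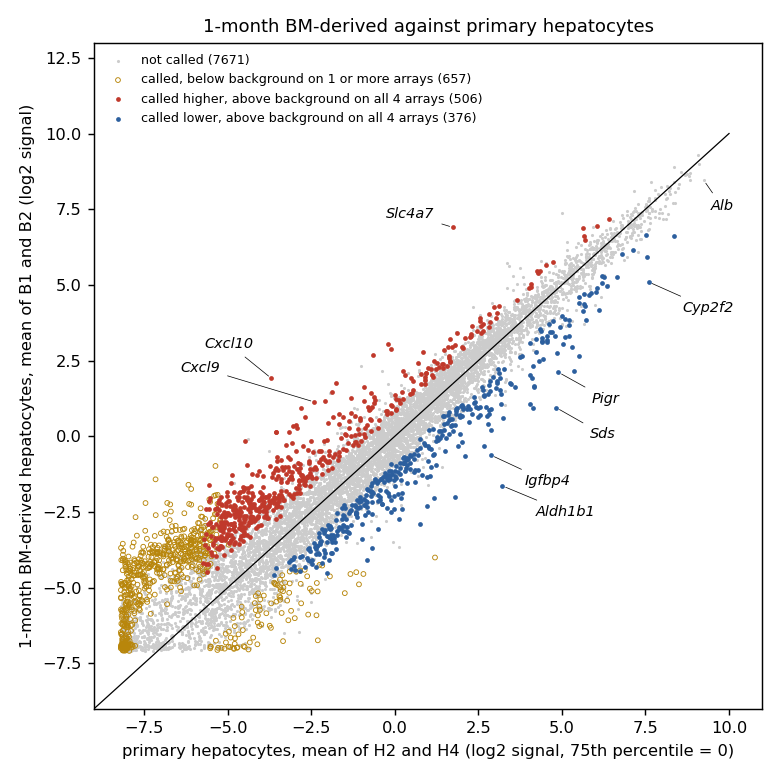
Mean log2 signal of each of the 9210 genes tested in primary hepatocytes (x axis) and in 1-month BM-derived hepatocytes (y axis), with the line of equal level; filled points are called genes above background on all 4 arrays (506 higher in red, 376 lower in blue) and open circles are called genes below background on at least 1 array. Aldh1b1, Sds, Igfbp4 and Pigr lie far below the line, Cxcl10, Cxcl9 and Slc4a7 far above it, and Alb close to it, while many of the higher calls crowd the dim corner at the lower left.

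The dim end of this comparison differed between the slides. The lowest level that counted as well above background was -4.69 on B1 and -4.79 on B2, but -6.04 on H2 and -5.65 on H4, since the 1-month arrays had weaker signals. Of the 1068 genes called higher, 725 (67.9%) had all 4 arrays of slide 1, Lin- BM cells included, above all 4 arrays of slide 2, a pattern held by 20.0% of all genes tested. Of the 471 genes called lower, 315 (66.9%) had all 4 arrays of slide 1 below those of slide 2, against 10.7% of all genes. Of the same calls, 582 of the higher genes (54.5%) had both 1-month arrays above all 6 others (13.5% of all genes), and 158 of the lower genes (33.5%) had them below all 6 others (6.73% of all genes). Both patterns include the separation of the 1-month from the primary arrays that a call favours. Their shares among called genes are therefore raised over those of all genes by construction. The first pattern is also held by genes that cells of the marrow and the 1-month cells share, so it does not separate slide from origin.

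Olfactory receptors (Olfr genes), which detect odours in the nose and have no known role as liver markers, gave many of the higher calls. Of 106 tested, 72 were called higher (67.9%, against 11.6% of all genes) and 0 lower, with a median difference of 2.54. Only 33 of them were above background on all 4 arrays. Receptors could enter the test through the 1-month arrays, where they were high. Of the 209 genes above background on both 1-month arrays and neither primary array, 202 were called higher and 0 lower. The share of 67.9% is therefore no independent support for a rise. Olfr441 was at -0.60 on B1, 0.32 on B2, -4.32 on H2 and -4.65 on H4, a difference of 4.34 (SE 0.40, adjusted p = 0.0029). The groups were far apart, and Lin- BM cells lay between them at a mean of -2.21. Against Lin- BM cells on the same slide, the median of the 106 genes at 1 month was 1.21 higher and 66 were called in either direction (62.8% of all genes tested were called there), and within slide 2 the median of the 5-month cells was 0.22 above primary hepatocytes. The 3 comparisons share arrays. Vomeronasal receptors (12 of 16 higher, 1 lower) and keratin-associated proteins (7 of 10 higher, 1 lower) had the same preponderance. The same limit holds for them, with 6 and 4 genes above background on all 4 arrays. Spike-in controls, RNAs added in known amounts to each sample, differed by -0.84 to 0.78 between the 1-month and primary arrays before scaling, in both directions, and by 0.04 to 0.23 between the 1-month arrays and those of Lin- BM cells on the same slide. Within slide 2, the 5-month arrays were above the primary arrays for all 8 spike-in sequences, by 0.14 to 0.71. The part of slide, design and signal strength in the olfactory receptor calls was not tested.

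**Figure D2:**
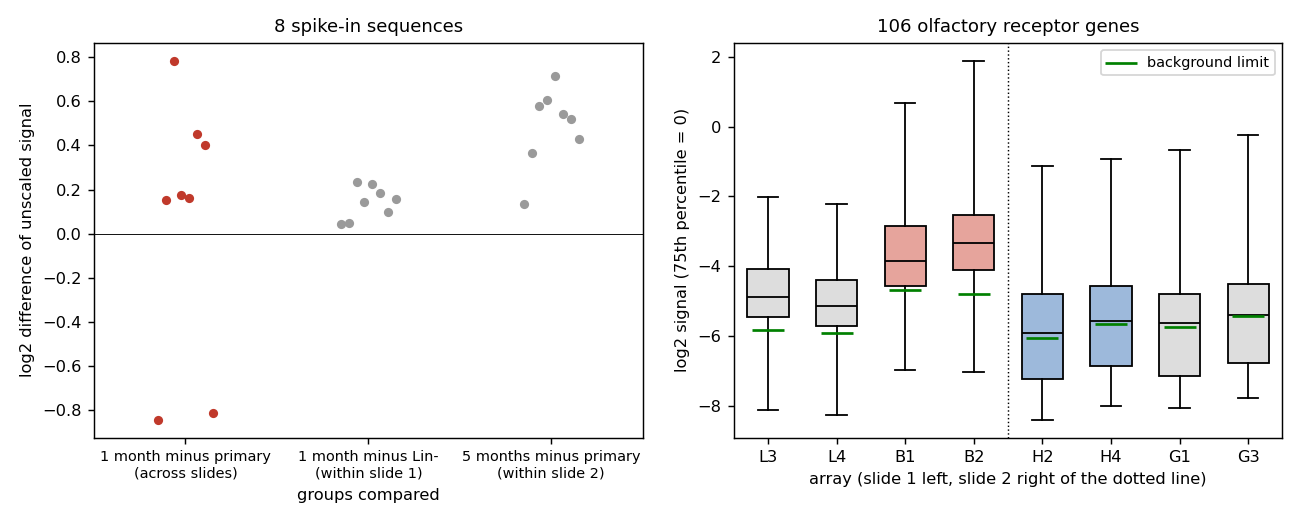
Left, log2 difference of the unscaled signal of 8 spike-in sequences (points) between the groups named on the x axis, which scatter from -0.84 to 0.78 across slides from 0.04 to 0.23 within slide 1 and from 0.14 to 0.71 within slide 2. Right, log2 signal of 106 olfactory receptor genes on each array (box: quartiles and median; whiskers: lowest and highest value; green mark: background limit of the array), highest on B1 and B2.

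Many periportal genes had a lower signal at 1 month. Of 15 tested, all above background on all 4 arrays, 7 were lower at 1 month and 0 higher. Among all genes above background on all 4 arrays, 5.42% were lower and 7.29% higher. The median difference of the 15 was -1.49, and 14 of them were below 0, as were 3772 of all 9210 genes. Over 21 ways of processing, between 4 and 10 were called lower and 0 higher, and the median stayed between -1.91 and -1.07. With the spike-in alignment 14 were lower, as were 3739 of all 9210 genes. The 5-month cells lay on the slide of the primary hepatocytes and are compared with the same arrays. There the median was -0.19 and limma called 0 of the 15 (1.04% of all genes were called). Of the 15, 2 had an unadjusted limma p under 0.05, as had 1190 of all 9210 genes.

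Aldh1b1, a mitochondrial aldehyde dehydrogenase, had the largest fall of any gene above background on all 4 arrays. It was at -1.92 on B1, -1.35 on B2, 3.92 on H2 and 2.52 on H4, a difference of -4.86 (SE 0.46, n = 2 against 2, limma adjusted p = 0.00307), or 29.0-fold. The groups were separated by far more than their own spread, and the 5-month mean of 1.95 lay just under the lower primary array. Sds, serine dehydratase, which feeds serine into glucose production, was at 0.78 and 1.10 on the 1-month arrays and at 4.41 and 5.26 on the primary arrays (-3.89, SE 0.60, adjusted p = 0.00932). Pigr, the receptor that carries IgA into bile, was at 2.33 and 1.89 against 5.13 and 4.65 (-2.78, SE 0.28, adjusted p = 0.0034). These 3 genes kept their call under all 20 other ways of processing, each array left out in turn included. They also kept it with the spike-in alignment, but so did all 471 lower calls. That alignment moved the median difference of all genes from 0.17 to -0.87, so it is no test of a fall.

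Etnppl (-2.55), which breaks down phosphoethanolamine, Cyp2f2 (-2.50), a P450 of the periportal zone, and the urea cycle enzymes Arg1 (-1.91) and Asl (-1.01) were lower as well. Asl lost its call with quantile normalization and when any hepatocyte array was left out, and Cyp2f2 without H2, H4 or B1 (-3.19 to -1.81 with 1 array left out). The 1-month arrays did not agree closely for all of them: Cyp2f2 was at 4.41 on B1 and 5.78 on B2, against 7.68 and 7.51 in primary hepatocytes, and Etnppl was at 0.83 and 2.41 against 4.49 and 3.84. Arg1 was at 3.30 and 3.33 against 5.07 and 5.38, with no overlap, but its call was lost when B1 or B2 was left out. Among the 8 periportal genes without a call, Gls2 (glutaminase) differed by -1.96 and Hal (histidine ammonia-lyase) by -1.49, while G6pc, which releases glucose, differed by -0.22 and Rnase4 by 0.30.

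Among the pericentral genes few were called. Of 13 tested, 1 was higher and 0 lower, and the median difference was 0.12, close to the 0.17 of all genes. Under other processing this median ranged from -0.24 to 0.95, and with the spike-in alignment 1 was higher, 5 were lower and the median was -0.92. Cyp7a1, the rate-limiting enzyme of bile acid synthesis, differed by 1.06, Oat, ornithine aminotransferase, by 1.76, Cyp2c29 by -0.38 and Cyp1a2 by -0.52, all without a call. The gene that rose was Sp5, a transcription factor induced by Wnt signals, at -1.23 and -1.40 on the 1-month arrays and -4.39 and -3.50 on the primary arrays (2.63, SE 0.59, adjusted p = 0.03). Its call was lost without B1, B2, H2 or either 5-month array, and its 5-month mean was -1.79. Averaged over the list, periportal genes were at 3.19 and 3.66 on B1 and B2 against 5.35 and 5.02 on H2 and H4, and pericentral genes at 3.68 and 3.74 against 2.84 and 3.72. Whether the sorted cells came more from one part of the lobule was not tested.

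**Figure D3:**
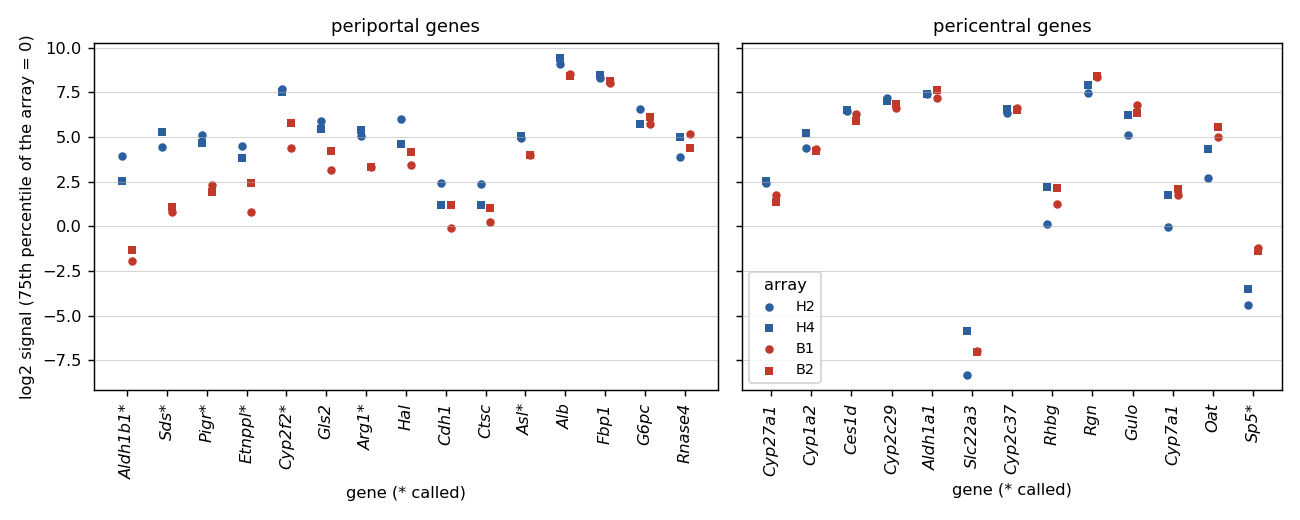
Log2 signal of the 15 periportal (left) and 13 pericentral genes (right) on each array, ordered by the difference between groups, with primary hepatocytes in blue and 1-month BM-derived hepatocytes in red (circles and squares: the 2 arrays of a group; asterisk: called). Most periportal genes have both red points below both blue points, and among pericentral genes only Sp5 is called.

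Other pathways of the hepatocyte were touched in single genes. Among the 14 genes of the growth hormone and IGF axis, 3 carriers of insulin-like growth factors fell and 0 genes rose, while the median was 0.24. Igfbp4, which binds IGFs and restrains them, was at -0.20 and -1.05 on the 1-month arrays and at 2.58 and 3.19 on the primary arrays (-3.51, SE 0.35, adjusted p = 0.00336). Igfals, the subunit that keeps IGFs in the blood, differed by -2.21 and Igfbp2 by -1.94. Igfbp4 and Igfbp2 held under all ways of processing, and Igfals lost its call in the fit of the 4 arrays alone and without H2 or B2.

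Of 24 genes of complement and coagulation, 2 were lower and 1 higher. C9, the last protein of the membrane attack complex and 1 of the 12 tested genes that the study names for its arrays, was at -0.63 and -0.03 on the 1-month arrays and 2.22 and 3.15 on the primary arrays (-3.01, SE 0.36, adjusted p = 0.00476). It was the only 1 of those 12 with a call (16.7% of all genes were called), and its 5-month mean was 3.41. The study names C9 as raised against Lin- BM cells, which is another comparison than this with primary hepatocytes. F7, the start of the extrinsic clotting pathway, differed by -1.03, and C4bp, an inhibitor of complement, by 0.76 (-0.28 with the spike-in alignment). F8, the factor that the recipients lack, was at -4.26 and -4.20 against -3.54 and -3.86, a difference of -0.53 (SE 0.52, adjusted p = 0.518).

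Amino acid breakdown had 5 lower genes of 33 and 0 higher, against 5.11% lower and 11.6% higher of all genes. Ahcy, which clears S-adenosylhomocysteine, was at 0.62 and 0.70 against 2.54 and 2.95 (-2.09, SE 0.23, adjusted p = 0.00401), and the others were Sds, Hgd (-1.45) of tyrosine breakdown, Uroc1 (-1.20) of histidine breakdown and Afmid (-1.09) of tryptophan breakdown. Among the 12 urea cycle and ammonia genes, Arg1, Asl and the glutamine carrier Slc38a3 (-1.12) were lower. Of 19 genes of glucose production and glycogen, Sds and Ppp1r3g (-1.97), which directs a phosphatase to glycogen, were lower.

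In fat and energy metabolism, Pdk4, the kinase that shuts off pyruvate oxidation in fasting, was at 3.49 and 2.25 at 1 month and 0.30 and -0.50 in primary hepatocytes (2.97, SE 0.46, adjusted p = 0.00955). Acads (-1.96), an acyl-CoA dehydrogenase for short chains, and Slc25a20 (-1.14), the carnitine carrier of mitochondria, were lower. The fatty acid oxidation list as a whole had 1 higher and 3 lower genes of 29 and a median of 0.02. The 46 genes of the respiratory chain and ATP synthase had a median of -0.10, and 0 were higher (11.6% of all genes were). Lower were 5 of them (5.11% of all genes), among them Ndufa10 by -1.24, Cox6b1 by -1.07, Atp5j by -0.99 and Atp5g3 by -0.84. These calls fell to 0 when any of B1, B2, H2 and H4 was left out, and with the spike-in alignment 35 were lower (median -1.14).

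Detoxification genes were called in both directions. Among 28 cytochrome P450 genes, Cyp2f2 and Cyp2d22 (-1.10) were lower, while Cyp2c38 (2.25) and Cyp2b13 were higher, against 5.11% and 11.6% of all genes (16 lower and 1 higher with the spike-in alignment). Cyp2d22 lost its call without any of the 4 arrays compared. Cyp2c38 lost it when any array but H4 was left out (differences of 1.41 to 3.10), with quantile normalization and with the values processed by the authors. Cyp2b13, a gene that female mouse liver favours, was not above background in primary hepatocytes, and its level at 1 month was at least 4.55-fold higher. Of the other 14 tested genes with a female bias 0 were called. Of 10 tested genes with a male bias, 1 was called higher and 0 lower. Aldh2, the main enzyme of acetaldehyde removal, was at 3.18 and 2.70 against 5.09 and 5.49 (-2.35, SE 0.33, adjusted p = 0.00688). Abcc4, an efflux pump for bile acids and conjugates that rises when bile flow is impaired, was at 0.54 and 0.81 against -1.26 and -1.12 (1.87, SE 0.23, adjusted p = 0.00493), and its mean in Lin- BM cells was 0.97. Txnrd1 (0.86) and Gstt3 (1.02) were higher too, but were at -0.19 and -0.019 with the spike-in alignment.

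Several lists at the core of hepatocyte identity held no call. Of the 17 plasma protein genes limma called 0 (5 at an unadjusted p under 0.05), although 15 were below 0 and the median was -0.44. Albumin differed by -0.78 (adjusted p = 0.0539) and plasminogen (Plg) by -1.02 (adjusted p = 0.052), both just beyond the threshold, and up to 7 of the 17 were called lower under other processing (14 with the spike-in alignment, median -1.49). The 8 transcription factors had a median of -0.58 with 0 calls (3 at an unadjusted p under 0.05), Nr1i2, the xenobiotic receptor PXR, being the farthest at -1.63 (adjusted p = 0.0539). The 25 chromatin modifying enzymes (median -0.17, 10 at an unadjusted p under 0.05) and the 13 induced acute phase proteins (median 0.25, 2 at an unadjusted p under 0.05) had 0 calls as well. Of all 9210 genes, 2978 had an unadjusted limma p under 0.05 and 3772 were below 0. A gene without a call is not shown to be equal between groups, since 2 arrays a group leave wide errors.

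Among genes associated with the fetal liver, 3 of 9 were called higher (11.6% of all genes were). Afp, the albumin of the fetus, was at 1.08 and 1.78 at 1 month and at -0.69 and -0.74 in primary hepatocytes (2.14, SE 0.47, adjusted p = 0.0293), with a 5-month mean of -1.10. Mest, an imprinted gene of growing tissues, was at -1.17 and -1.09 against -3.14 and -4.03 (2.46, SE 0.60, adjusted p = 0.0389). The third, Gpc3, was not above background in either group. Afp and Mest lost their calls when any of the hepatocyte arrays was left out. Mest also lost its call with quantile normalization, with scaling to the median and with the values processed by the authors. With the spike-in alignment 0 of the 9 were higher and 4 lower (median -0.74). Cell cycle genes had 2 higher calls of 25 (Pcna by 0.96 and Mcm3 by 1.19), which both also had high levels in Lin- BM cells (5.02 and 4.58), and Pcna was at -0.081 with the spike-in alignment. Pcna and Mcm3 lost their calls with scaling to the median, with the values processed by the authors and when any hepatocyte array was left out.

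Chemokines draw leukocytes into tissue. Of 19 tested 5 were higher (11.6% of all genes were), 3 of these above background on all 4 arrays, and 0 lower, with a median of 0.83, and between 2 and 8 were higher over the ways of processing (4 higher and 2 lower, median -0.22, with the spike-in alignment). The 5-month cells, set against the same primary arrays, had a median of 1.18 with 1 call. The promoters of Cxcl10 and Cxcl9, ligands of the receptor CXCR3 on T cells, are printed here with those of Cxcl1 and Fos, whose levels differed most between B1 and B2. Each is the 250 bases before the start of the gene, from RefSeq on GRCm38.p6 (Cxcl10 at chr5:92348890-92349139 and Cxcl9 at chr5:92328080-92328329, both minus strand; Cxcl1 at chr5:90890995-90891244 and Fos at chr12:85473640-85473889, both plus strand), with matches to the motifs below in capitals.
Cxcl10: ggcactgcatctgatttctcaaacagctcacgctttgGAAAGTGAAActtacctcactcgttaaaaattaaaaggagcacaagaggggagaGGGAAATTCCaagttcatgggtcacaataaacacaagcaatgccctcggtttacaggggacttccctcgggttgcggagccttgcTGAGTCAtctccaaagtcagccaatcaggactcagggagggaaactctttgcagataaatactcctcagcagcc
Cxcl9: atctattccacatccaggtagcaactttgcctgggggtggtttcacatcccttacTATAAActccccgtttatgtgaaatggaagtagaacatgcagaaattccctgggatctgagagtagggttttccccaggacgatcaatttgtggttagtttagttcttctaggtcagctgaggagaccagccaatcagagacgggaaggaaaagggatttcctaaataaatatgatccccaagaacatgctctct
Cxcl1: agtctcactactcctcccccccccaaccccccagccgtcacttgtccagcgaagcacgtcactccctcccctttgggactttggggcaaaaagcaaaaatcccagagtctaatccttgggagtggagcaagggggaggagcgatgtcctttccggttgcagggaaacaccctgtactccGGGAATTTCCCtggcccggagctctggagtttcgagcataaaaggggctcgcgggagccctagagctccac
Fos: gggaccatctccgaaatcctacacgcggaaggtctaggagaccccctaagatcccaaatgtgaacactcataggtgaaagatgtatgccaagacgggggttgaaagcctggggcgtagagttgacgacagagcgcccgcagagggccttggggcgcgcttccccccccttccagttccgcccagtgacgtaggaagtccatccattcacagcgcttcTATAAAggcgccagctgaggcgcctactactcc

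Both strands were searched for TATAAA (which positions the polymerase and is in 12.4% of 32851 promoters of this length), TGANTCA (AP-1, 6.75%), TGACGTCA (cAMP response element, 1.55%), the NF-kappaB site (1.21%), the interferon-stimulated response element (2.98%) and the serum response element or CArG box (1.47%). The Cxcl10 promoter held an AP-1 match at -74 to -68, an NF-kappaB match at -159 to -150 and an interferon-stimulated response element at -213 to -204. Cxcl1 held overlapping NF-kappaB matches on its strands, from -71 to -62 and from -70 to -61. Fos held TATAAA at -33 to -28, and the only match in Cxcl9 was TATAAA at -195 to -190. A match is a description of these letters and not a bound site.

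Cxcl9 was at 1.74 on B1, 0.52 on B2, -2.70 on H2 and -2.11 on H4, a difference of 3.54 (SE 0.53, adjusted p = 0.00861). The groups were well apart on every array, and the call held under all ways of processing. Cxcl10 was at 3.84 on B1 but at -0.02 on B2, against -3.56 and -3.82 in primary hepatocytes (5.60, SE 1.09, adjusted p = 0.0196). Its size rested on B1: without B1 the difference was 3.67 and without B2 it was 7.53, and the call was lost without H2, without H4 and in the fit of the 4 arrays alone. The 5-month means, 0.19 for Cxcl9 and -1.39 for Cxcl10, also lay above primary hepatocytes, within slide 2. Ccl2, which draws monocytes, was not above background in primary hepatocytes, and the 1-month level exceeded theirs at least 10.9-fold. The call for Ccl2 was lost when dim values were raised to a common floor, and without H4, B1 or B2. Its difference was 3.33 to 3.59 with 1 array left out. Ccl4 was at -1.57 and -2.42 against -5.14 and -5.26 (3.21), and it was abundant in Lin- BM cells (4.02). The call for Ccl4 was lost with the same floor, with quantile normalization and with another background correction (normexp). It was also lost without H2, H4, B1 or B2. Its difference was 2.79 to 3.63 with 1 array left out. Cxcl14 was above background on part of the arrays only.

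Of 35 interferon response genes 6 were higher (11.6% of all genes were) and 0 lower, and the median was 0.47. Over the ways of processing 1 to 8 were higher. With the spike-in alignment 2 were higher, 13 were lower and the median was -0.57. Socs1, a brake on cytokine signals, was at 1.48 and -1.21 against -3.21 and -3.91 (3.69, SE 0.92, adjusted p = 0.041). Its call was lost with quantile normalization, in a fit of the 4 arrays alone and without H2, H4, B1 or either 5-month array (2.35 to 5.04 with 1 array left out). Gbp2 (1.99), Igtp (1.57), both GTPases of host defence, Cd274 (1.90), the ligand of PD-1, and Oasl2 (1.56) were above background on all 4 arrays, and Oas3 was not.

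The arrays of each group differed from one another, and this bears on which calls were possible. B1 and B2 differed by more than 1 for 1041 genes (11.3%), and H2 and H4 for 1431 genes (15.5%). On 4387 of all 9210 genes B1 was higher than B2, by more than 1 on 324, and B2 was higher by more than 1 on 717. Of the immediate early and stress genes, 22 of 25 were higher on B1 than on B2, 15 of them by more than 1, with a median of 1.43. The circadian clock genes (7 of 8 higher on B1, median 1.56) and the induced acute phase proteins (12 of 13, median 0.97) lay the same way. On those lists the primary arrays differed too, with medians of H2 minus H4 of -0.98 and -0.78. For the immediate early and stress genes that median was -0.20. Fos, a partner in the AP-1 factor, was at 3.20 on B1 and -3.36 on B2, against -4.66 on H2 and -4.16 on H4. Egr1 was at 5.51 on B1 and at -0.87, -0.85 and -1.16 on B2, H2 and H4. Atf3, a stress factor, was at 2.64 on B1 and at -3.63, -3.63 and -3.92 on the others. Among the 4 arrays compared, B2 lay near the primary arrays on these genes and B1 was high. The other arrays did not all share the low level: Fos was at 4.14 and 2.21 and Egr1 at 3.45 and 2.54 on the arrays of Lin- BM cells, Egr1 was at 1.46 and 1.96 on those of the 5-month cells, and the mean of the 25 genes was 2.03 and 1.08 in Lin- BM cells against 1.19 on B1.

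Among the same 4 arrays B1 was also highest for Cxcl1, which draws neutrophils (3.94 on B1, -2.69 on B2, -0.89 and -1.53 on the primary arrays), Socs3 (4.54, -0.34, 0.50 and 0.27) and Csrnp1 (3.17, -0.49, -0.09 and 1.19). With such a spread the limma adjusted p was 0.172 for Fos, 0.248 for Egr1 and 0.542 for Cxcl1, and of the 25 genes only Fosl1, which was below background in both groups, was called. Over the plasma proteins, B1 and B2 differed by a median of 0.11. The part of cell handling in the B1 values was not tested.

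**Figure D4:**
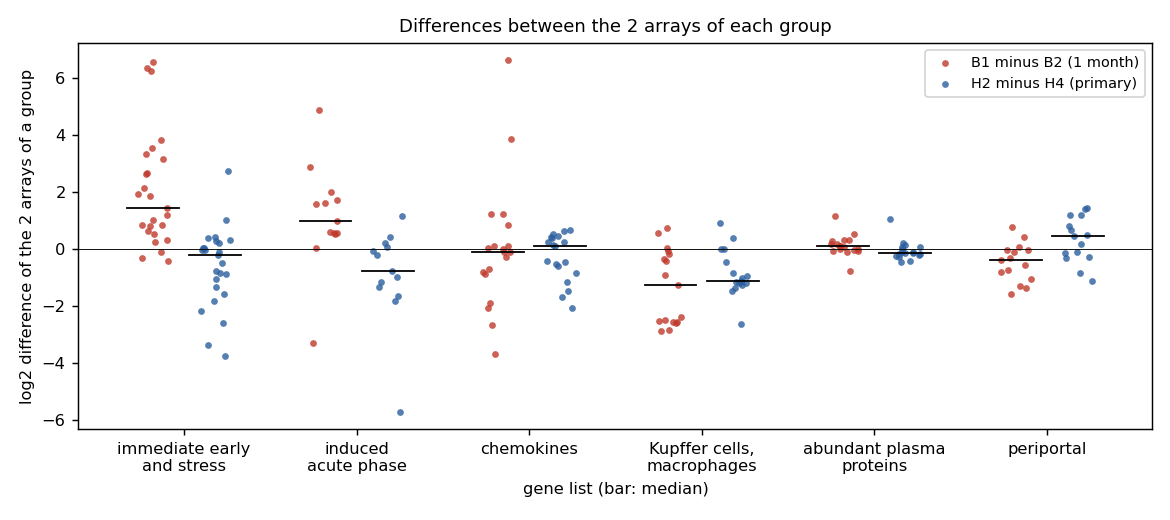
Log2 difference between the 2 arrays of a group for each gene (points) of 6 lists, B1 minus B2 in red and H2 minus H4 in blue, with the median as a bar. Immediate early and stress genes reach above 6 on B1 over B2 (median 1.43), macrophage genes lie below 0 in both groups (medians -1.27 and -1.13), and plasma proteins lie near 0.

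On macrophage genes B1 and B2 differed in the other direction, while 4387 of all 9210 genes were higher on B1. Of the 17 Kupffer cell and macrophage genes 14 were higher on B2 than on B1, with a median of B1 minus B2 of -1.27, and the primary arrays differed in the same way among themselves (H2 minus H4 -1.13). Clec4f, which only Kupffer cells express in the liver, was at -0.99 on B1, 1.55 on B2, 0.21 on H2 and 1.57 on H4. Cd5l was at 0.75, 3.28, 1.37 and 2.33 and C1qa, of the complement C1 complex, at -3.59, -0.99, -1.47 and -0.30. The groups overlapped for each of them. Between the groups limma called 0 of the 17 genes (3 at an unadjusted p under 0.05), and the median was 0.01. The mean level of the list was -1.64 and -0.31 at 1 month and -1.45 and -0.59 in primary hepatocytes. Hamp, the iron hormone hepcidin, was at 2.69 on B1 and at 5.98, 5.49 and 6.46 on B2, H2 and H4, and Meg3 was at -1.90, 2.02, -0.28 and 2.57.

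Markers of other cell types gave few calls. Sinusoidal endothelium had 1 higher gene of 13 (Flt1 by 1.25), but 12 of the 13 were above 0 (median 0.81), as were 5438 of all 9210 genes. The mean level of the list was 0.27 and 0.47 at 1 month against -0.57 and -0.26. Among stellate cell and fibroblast genes, Acta2, smooth muscle actin, was higher (-2.67 and -1.92 against -5.08 and -4.50; 2.50, adjusted p = 0.00597), whereas Tagln, transgelin of the same muscle programme, was lower (1.20 and 0.91 against 3.63 and 4.48; -3.00, adjusted p = 0.00516). Blood progenitor genes had 4 higher calls of 25 (11.6% of all genes were higher) and a median of 0.64. Lyl1 (1.05) and Itgal (1.58) were above background on all 4 arrays, while Runx1 and Slamf1 were not above background in either group and turned to -0.15 and -0.047 with quantile normalization. Lymphocyte (2 of 11), neutrophil (1 of 12) and erythroid genes (2 of 12) were called higher, against 11.6% of all genes, and 0 of them lower. Their mean levels at 1 month, -5.85 and -5.12, -4.68 and -4.39, and -3.48 and -3.28, were low, and 2 of 11, 5 of 12 and 7 of 12 genes were above background. The part of carried-over blood cells was not tested. In bulk cells, more cells of a type and more RNA per cell cannot be told apart.

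Among the sex-linked genes, which could mark female donor cells, limma called 0 of 7 (4 at an unadjusted p under 0.05). Xist was not above background in either group, and the Y-linked gene Ddx3y was at 1.30 and 1.33 at 1 month and 0.92 and 1.24 in primary hepatocytes. Its mean in Lin- BM cells, which came from female donors by the methods, was 0.36. Whether its probe also binds related transcripts was not tested.

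The largest rise after Cxcl10 among genes above background on all 4 arrays was that of Slc4a7, a bicarbonate carrier, at 6.84 and 6.96 against 2.85 and 0.64 (5.15, SE 0.65, adjusted p = 0.00516). Lin- BM cells, on the same slide as the 1-month cells, had a mean of 5.97. Hprt, a gene used for normalization, showed the same layout, with 5.38 and 5.52 at 1 month, 4.30 and 4.40 in primary hepatocytes (1.10, adjusted p = 0.0175), 4.22 at 5 months and 5.30 in Lin- BM cells. It was the 1 called of 8 housekeeping genes, of which 5 were below 0 (median -0.28), and it lost its call without any of the 4 arrays compared. Other large rises were those of Lrtm1 (3.69), Best2 (3.58), a chloride channel, and Slc49a4 (3.50).

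Large falls beyond the lists were those of Gm7189 (-3.81), Disc1 (-3.67), Vmn1r192 (-3.28), Hnrnpa0 (-3.27), Gpc1 (-3.23), Myom2 (-3.21) and B020031M17Rik (-3.20). Myom2, a muscle sarcomere protein, was at 0.51 and 1.34 at 1 month, 4.14 on average in primary hepatocytes, -4.23 at 5 months and -4.83 in Lin- BM cells, so the primary arrays were the highest of all groups. Among genes without a level above background at 1 month, Wdr72 was at least 12.5-fold and Rhox4a at least 5.40-fold lower. Among those without one in primary hepatocytes, Olfr259 was at least 21.5-fold, Mrgprb4 at least 12.5-fold, the glutathione transferase Mgst2 at least 12.2-fold and Ptchd1 at least 12.1-fold higher. Mgst2 was at 2.81 in Lin- BM cells. Its call was lost with normexp, quantile normalization and the common floor, and without any of the 4 arrays compared. Rhox4a was at -1.22 on H2 and -3.39 on H4. The call for Rhox4a was lost with normexp, the common floor, the 4 arrays alone and without H2, B1 or B2.

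**Figure D5:**
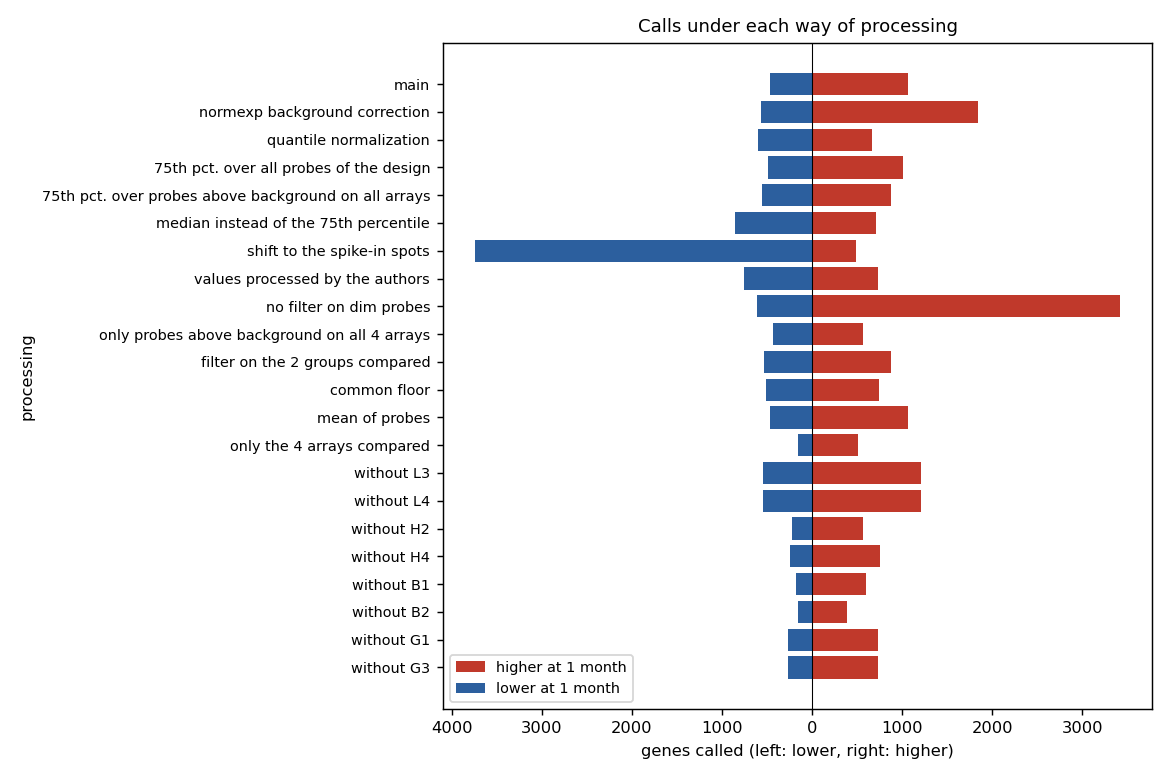
Number of genes called higher (red, right) and lower (blue, left) at 1 month under each way of processing (y axis), with the reported one at the top. The spike-in alignment gives 3739 lower calls, the lack of a filter on dim probes 3421 higher calls, and leaving out B2 gives 547 calls, the fewest of the ways plotted.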

How the data were processed

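Of the 8 arrays in 4 groups, the 1-month BM-derived and the primary hepatocyte arrays were compared, and all 8 entered the fit so that the groups shared 1 estimate of the spread. Per the labels, total RNA was amplified and labelled with Cy3. The deposited intensities are background-subtracted signals of Agilent Feature Extraction. The authors also deposited log2 values from GeneSpring GX, shifted to the 75th percentile of the array, which served as an alternative. No fold change or p-value of the authors was used.

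Feature Extraction had marked 6 to 152 outlier spots an array, which were dropped, and no saturated ones (0). Between 47.7% and 58.6% of the probes of an array were well above background. Weak signals and 2 arrays per group limit the precision, and the smallest two-sided p that exact permutation of 2 against 2 arrays allows is 0.33. Genes were named through the RefSeq table of GRCm38.p6 by accession (11785 of the 13991 probes) or by symbol or synonym (1080), and 1126 kept the name in the files. The brightest probe stood for a gene. For 178 sequences the designs give different genes.

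Group means entered limma 3.58.1 (R 4.3.3), tested on simulated data; tables used Python 3.11.15 and pandas 2.3.3. Where neither array of a group was well above background, the bound is the mean of the bright group over, per dim array, the higher of the lowest signal well above background and the probe's own. Genes named singly were the 10 largest rises and falls above background on all 4 arrays, the 5 largest of each by their bound, the 10 largest differences of B1 and B2 each way, those with the smallest p in each of 40 lists, F8 and sex-linked genes, and genes the study names. Other list members and the olfactory receptors were named after their values were seen. The members and lists were chosen with earlier results of these data known. Some items are not reported here. Alternatives were background correction (normexp, offset 50), scaling, filters, the authors' values, the probe rule, the t-test of the methods, and each array left out.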

Additional observations from a re-analysis of the deposited data

How the results depend on the processing

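Of the 1539 calls, 274 held under the 12 other ways of processing (186 higher, 88 lower; 1 of these tests only genes above background on all 4 arrays), 400 with each of the 8 arrays left out, and 159 under all 20. Aldh1b1, Sds, Pigr, Igfbp4, Igfbp2, C9, Aldh2, Ahcy, Cxcl9, Abcc4, Tagln and Acta2 are among the latter. The count was 2409 with normexp background correction, 4230 with the shift to the spike-in spots, 4035 without the filter on dim probes, 991 with probes above background on all 4 arrays, 675 with the 4 arrays alone, and 2 with the methods' t-test after Benjamini-Hochberg adjustment (1765 before it). Leaving out 1 array gave 547 (without B2) to 1751, with 783 without B1, 785 without H2, 1003 without H4 and 992 without either 5-month array. For 5 months against primary hepatocytes (96 calls) the count was 1135 with the spike-in shift, 654 and 1 with the t-test before and after adjustment, and 4 to 80 with 1 array left out. For 1 month against Lin- BM cells (5780 calls) it was 2270 with the adjusted t-test and 4742 to 5845 with 1 array left out.

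Direction turned for Acot2 (0.068) and Atp5j (0.15) with normexp, for Runx1 (-0.15) and Slamf1 (-0.047) with quantile normalization, and with the spike-in shift for C4bp (-0.28), Gstt3 (-0.019), Pcna (-0.081), Runx1 (-0.023), Txnrd1 (-0.19) and Ugt2b35 (-0.14); the cause was not tested. No paired analysis was possible because the groups compared share only replicate number 2, and slide as a block could not be fitted since each group lies on 1 slide.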
